A study of Homo sapiens with 8 samples.

Results

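A cell copies its genome once per division with a fixed set of proteins, and the RNA of 51 genes that encode them was followed here after HMGA1 silencing. The origin recognition complex (ORC) marks the start sites, CDC6 and CDT1 load the ring-shaped MCM helicase there, and the kinase of CDC7 and DBF4 with CDC45 and the GINS proteins turns the loaded ring into an active helicase. DNA polymerases, the sliding clamp PCNA with its loader RFC, and the single-strand binding protein RPA then work at the fork, which TIMELESS, TIPIN, CLSPN and WDHD1 keep together. Many of these genes are transcribed as cells enter S phase, under E2F transcription factors. The 51 genes were listed by their role in replication, and each was found in at least 1 probe set that the platform annotation gives to that gene alone, among 19775 genes in all.

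MDA-MB-231 is an established human basal-like breast cancer line with a mutant p53. All cells were transfected, 4 cultures with a control siRNA (siCTRL) and 4 with an siRNA against HMGA1 (siHMGA1), and no group was left untransfected. The methods call the cultures biological replicates without saying how they were kept apart. The p-values thus reflect only the variation among these arrays, which may be technical. For the arrays the methods name a single HMGA1 siRNA, so that in them effects of its sequence and of HMGA1 loss cannot be told apart. Other assays of the paper also used a further siRNA, shRNAs against separate regions of HMGA1, and a rescue of migration by siRNA-resistant HMGA1. The sections of the methods differ on the array type and on the number of replicates; the deposited table holds 54675 probe sets in 8 arrays. Each gene is given by its brightest probe set as a log2 signal, so that 1 unit is a 2-fold difference, and levels of different genes are not compared because probe sets differ in their response.

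HMGA1, an architectural chromatin protein, had log2 signals of 12.62, 12.84, 12.69 and 12.85 with siCTRL and 10.11, 10.37, 10.29 and 10.57 with siHMGA1. The groups did not overlap, and HMGA1 fell by 2.42 (SE 0.0956, limma adjusted p = 2.46e-08), which left 18.7% of the control signal. Its dimmer probe set, an _x_at one, fell by 0.90 (limma adjusted p = 0.00108 among all probe sets), and with the average of both the log2 fold change was -1.66. Array 4 had the highest of the siHMGA1 values in the brighter probe set and array 1 in the dimmer one. Correlations over all probe sets were 0.995 to 0.998 within groups and 0.989 to 0.992 between them. The 5 markers of this type of line (VIM, CD44, AXL, CAV1 and MSN) had mean log2 signals of 12.36 or more. Of the markers of luminal cells, PGR and CDH1 were below 5 and ESR1 was at 6.51 in siCTRL and 6.42 in siHMGA1, while GATA3 was at 9.81 and 9.76. ERBB3, also of this list, was higher after silencing, at 7.40 in siCTRL and 8.72 in siHMGA1 (log2 fold change 1.31, limma adjusted p = 6.22e-08). Among the leukocyte markers PTPRC was at 4.67 and 5.17 and CD3D at 7.22 and 7.41 in siCTRL and siHMGA1. Both were called higher, by 0.50 and 0.19 (limma adjusted p = 1.62e-04 and 0.0231). CD14 was at 6.87 in siCTRL and 6.78 in siHMGA1 and was not called. In the control probe sets for RNA quality, the 3' signal of GAPDH exceeded its 5' signal by 1.34, 0.70, 1.21 and 0.74 on the log2 scale in siCTRL arrays 1 to 4 and by 0.63 to 0.70 in the siHMGA1 arrays. That of ACTB was 4.11, 3.34, 3.96 and 3.38 in siCTRL arrays 1 to 4 and 3.04 to 3.22 in the siHMGA1 arrays, so that every control lay above every siHMGA1 array. Arrays 1 and 3 of siCTRL stood apart in both genes, and counts are also given without them, but the difference in ACTB remained between the other arrays and its part in the results was not tested.

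The promoters of these genes are shown first because most members moved together. RefSeq windows of 300 bases (GRCh38.p14, 250 before and 50 after the start of transcription) were at hand for 45 of the 51 genes. They were searched on both strands for the E2F letters TTTCCCGC, TTTGGCGC, TTTCGCGC and TTTGCCGC, which can overlap one another on opposite strands. At least 1 of them stood in 19 of 45 windows (42.2%), against 3.31% of 35116 RefSeq promoters of the same length. All 19 belonged to genes that were lower after HMGA1 silencing (19 of 39, 48.7%), and 0 of the 6 windows of genes that were higher or not called held one. Among the 19 was ORC3, with a log2 fold change of only -0.17 and a call that was lost in 9 of 18 alternative settings. Among the lower genes the share was 7 of 14 for those that fell by 1 or more and 12 of 25 for those that fell by less. The CCAAT box, the letters bound by NF-Y, stood in 25 of 45 windows (55.6%, against 34.6% of all promoters), in 11 of 14 windows of genes that fell by 1 or more, 10 of 25 of those that fell by less and 4 of 6 of those higher or not called. The CHR letters TTTGAA or TTCGAA stood in 2 of 45 (4.44%, against 16.4%). The windows had a median A plus T share of 35.0%, against 41.3% over all promoters, and the E2F letters are rich in G and C, so that base composition differs along with the share. A match is a string of letters and not a measured site.

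The stretches below (RefSeq, GRCh38.p14) run 5' to 3' from 120 bases before to 30 bases after the start, with the E2F letters of either strand in capitals. The first 6 are from genes that fell, in the helicase ring (MCM2 and MCM6) and its loading (CDC6), its activation (GINS1), fork protection (CLSPN) and the clamp (PCNA), and were chosen to show where the letters lie near the start.
MCM2, chr3:127598291-127598440, plus strand: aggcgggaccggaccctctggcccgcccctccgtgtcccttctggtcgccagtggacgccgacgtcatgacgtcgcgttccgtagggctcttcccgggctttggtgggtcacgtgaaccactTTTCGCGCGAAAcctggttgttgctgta
MCM6, chr2:135876414-135876563, minus strand: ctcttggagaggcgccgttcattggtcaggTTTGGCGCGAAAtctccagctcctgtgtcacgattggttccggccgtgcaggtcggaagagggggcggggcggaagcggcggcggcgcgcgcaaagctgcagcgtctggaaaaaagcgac
CDC6, chr17:40287759-40287908, plus strand: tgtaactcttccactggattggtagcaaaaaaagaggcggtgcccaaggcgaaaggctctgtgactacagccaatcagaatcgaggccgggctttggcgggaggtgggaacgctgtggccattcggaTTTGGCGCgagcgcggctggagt
GINS1, chr20:25407553-25407702, plus strand: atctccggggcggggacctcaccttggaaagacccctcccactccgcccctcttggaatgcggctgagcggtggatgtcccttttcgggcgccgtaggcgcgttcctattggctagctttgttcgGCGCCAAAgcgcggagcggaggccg
CLSPN, chr1:35769949-35770098, minus strand: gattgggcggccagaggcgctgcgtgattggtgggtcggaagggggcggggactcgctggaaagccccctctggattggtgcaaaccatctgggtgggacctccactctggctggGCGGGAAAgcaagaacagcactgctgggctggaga
PCNA, chr20:5126593-5126742, minus strand: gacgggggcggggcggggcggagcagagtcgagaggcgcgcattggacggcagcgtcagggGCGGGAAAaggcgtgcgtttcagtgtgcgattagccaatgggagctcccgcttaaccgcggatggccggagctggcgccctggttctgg
ORC4, which was higher, and TIMELESS, the member with the largest fall, are shown because none of these letters stood in their windows.
ORC4, chr2:148021522-148021671, minus strand: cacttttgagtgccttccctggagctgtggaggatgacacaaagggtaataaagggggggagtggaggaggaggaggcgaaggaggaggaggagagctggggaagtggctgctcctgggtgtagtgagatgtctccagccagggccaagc
TIMELESS, chr12:56449397-56449546, minus strand: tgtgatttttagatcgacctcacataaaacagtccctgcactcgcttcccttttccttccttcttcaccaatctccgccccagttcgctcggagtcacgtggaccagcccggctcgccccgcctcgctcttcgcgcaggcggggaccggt

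After HMGA1 silencing 43 of the 51 replication genes were called lower and 3 higher by limma (adjusted p under 0.05, here and below), with a median log2 fold change of -0.70. The other 5 (ORC2, GINS4, POLD2, RFC5 and RPA2) were not called. Of all 19775 genes 14.7% were lower and 15.8% were higher by the same call, with a median of 0.012. The 4 siHMGA1 values lay below every siCTRL value for 44 of the members and above for 2, where 15.6% and 17% of all genes did so. A fall of 1 or more on the log2 scale was called for 15 of the 51 genes, against 1.5% of all genes, 20 more fell by 0.5 to 1 and 8 fell by less. Only TIMELESS, CLSPN and WDHD1 passed the stricter thresholds of the methods (an adjusted p below 1e-04 and a log2 change beyond 1.4), as did 0.491% of all genes in the direction of a fall. Without siCTRL arrays 1 and 3, 42 members were lower and 4 higher (median -0.75). When arrays were centred on 10 housekeeping genes, of which TBP (-0.64) and HPRT1 (-0.34) were themselves called lower and SDHA (0.17) and YWHAZ (0.18) higher, 40 members were lower and 4 higher, while the split over all genes went from 2904 lower and 3124 higher to 2208 lower and 4917 higher.

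**Figure D1:**
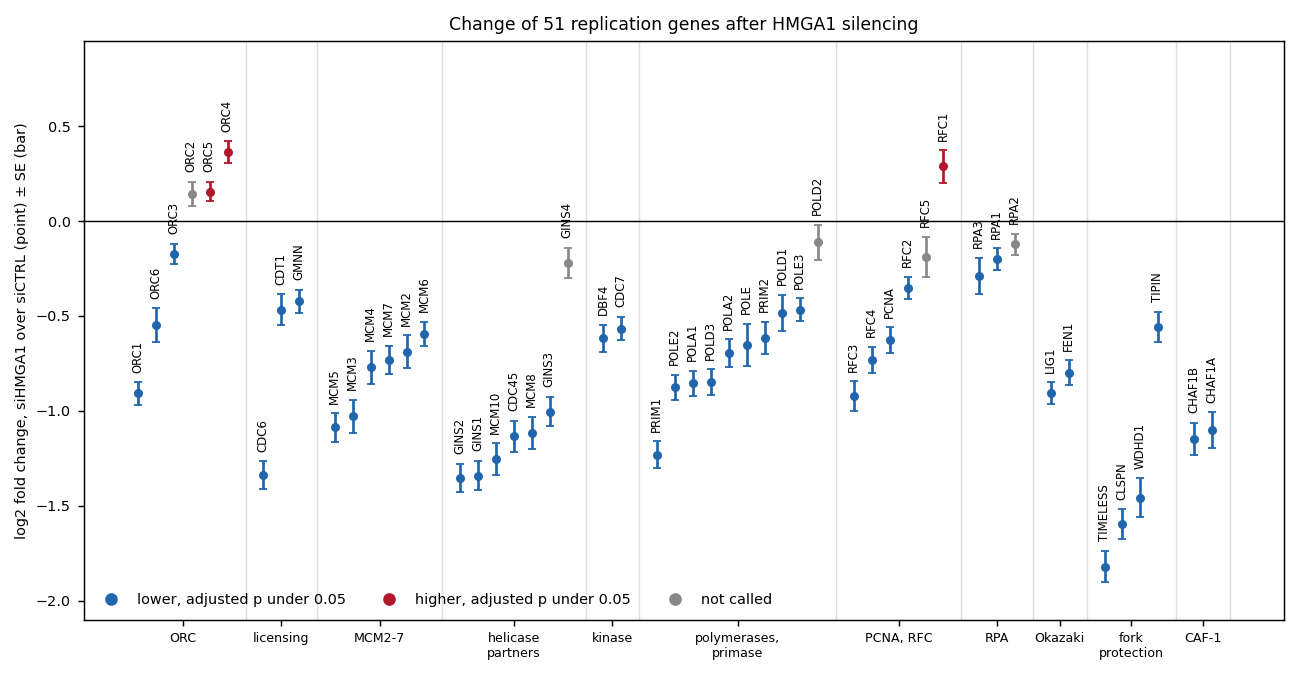
Log2 fold change of siHMGA1 over siCTRL for each of the 51 genes (vertical axis, point with standard error from limma), in functional groups along the horizontal axis, coloured by the call at an adjusted p under 0.05. Fork protection genes reach -1.82, while ORC4, ORC5 and RFC1 lie above 0.

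The median log2 fold change was -1.53 for the 4 fork protection genes, -1.13 for the 7 helicase partners (MCM8 included), -1.12 for the chromatin assembly genes, -0.85 for Okazaki fragment processing, -0.75 for MCM2 to MCM7, -0.67 for the 10 genes of polymerases and primase, -0.59 for the origin firing kinase, -0.49 for PCNA and RFC, -0.47 for the licensing factors, -0.20 for RPA and -0.014 for ORC. These medians are descriptions over few genes and were not tested against each other. Across the 51 members the control level and the log2 fold change had a Pearson r of 0.19 and a Spearman rho of 0.21, over genes that share the same 8 arrays. The 13 members with a control level of 11 or more had a median of -0.55 and the other 38 a median of -0.81. Bright probe sets can saturate, but whether this plays a part here was not tested.

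Within the siHMGA1 group, array 4 stood above the others across the members. It held the highest signal of its group for 38 of the 43 lower genes and the lowest for 0. The share of all genes that peak in this array is not given here. HMGA1 itself was highest in array 4 by its brightest probe set. Its dimmer probe set was highest in array 1, at 7.64, against 7.08 in array 4. The mean difference of these 43 genes from their siCTRL mean was -0.71 in array 4 and -0.90, -0.93 and -0.84 in arrays 1 to 3. With 4 arrays a relation to the HMGA1 signal was not tested. Without array 4, 42 members were lower and 2 higher, with a median of -0.76.

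**Figure D2:**
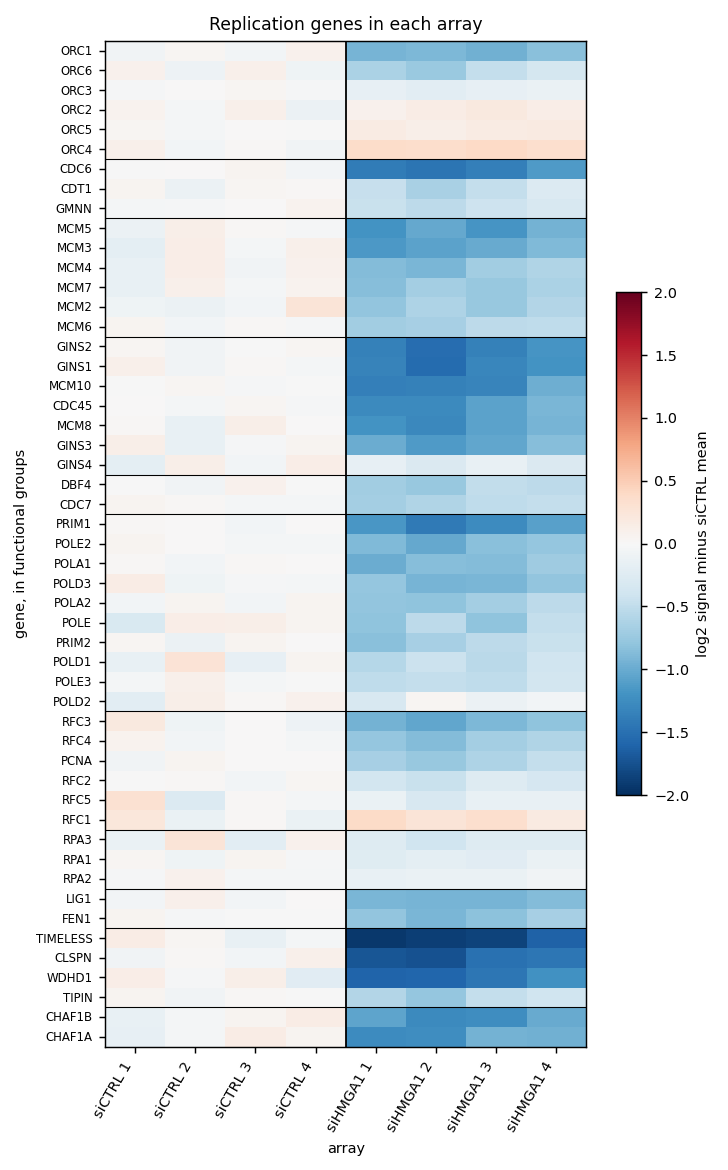
Log2 signal minus the siCTRL mean of the gene (colour) for the 51 genes (rows, in functional groups) in the 8 arrays (columns). The siHMGA1 columns are below 0 for most rows, and array 4 of siHMGA1 is the palest of them.

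Genes of cycling cells moved with the members. MKI67, TOP2A, CCNA2, CCNB1 and CDK1, which are expressed in dividing cells, were all called lower (median log2 fold change -1.002), and their mean log2 signal was 12.07 to 12.17 in siCTRL and 10.97 to 11.27 in siHMGA1 arrays. Of 4 genes linked to cell cycle exit, CDKN1B, CDKN1C and CCNG2 were called higher, as were 15.8% of all genes. CDKN1A went the other way, with a log2 fold change of -0.18 and the groups apart, but was not called (limma adjusted p = 0.0588). In these bulk samples, fewer cells in S phase and less RNA of a gene per cell cannot be told apart.

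The largest falls were in fork protection. TIMELESS, a scaffold that couples the helicase to the polymerases, had log2 signals of 9.91, 9.81, 9.63 and 9.72 with siCTRL and 7.84, 7.89, 7.92 and 8.15 with siHMGA1. Every siHMGA1 value was more than 1 unit below the lowest control. TIMELESS fell by 1.82 (SE 0.0835, limma adjusted p = 6.23e-08), to 28.3% of the control signal. CLSPN, which carries the checkpoint signal from stalled forks to CHEK1, was at 8.88, 8.98, 8.89 and 9.04 with siCTRL and 7.23, 7.21, 7.45 and 7.50 with siHMGA1, and it fell by 1.60 (SE 0.0792, limma adjusted p = 9.81e-08). WDHD1 (AND-1 or Ctf4), which ties polymerase alpha to the helicase, was at 9.17, 9.01, 9.15 and 8.81 with siCTRL and 7.43, 7.45, 7.60 and 7.82 with siHMGA1, and it fell by 1.46 (SE 0.103, limma adjusted p = 9.98e-07). TIPIN, the partner protein of TIMELESS, had signals of 9.78, 9.67, 9.76 and 9.72 with siCTRL and 9.15, 8.95, 9.26 and 9.33 with siHMGA1. Its groups did not overlap either, but it fell by 0.56 (SE 0.0805, limma adjusted p = 2.32e-04). TIMELESS rests on an _s_at probe set, and its other one, with a mean signal of 5.40, fell by 0.35.

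Of the 6 genes whose proteins join the MCM ring or help to start it, 5 fell, as did MCM8, which was listed with them. GINS1 was at 10.84, 10.66, 10.76 and 10.71 with siCTRL and 9.40, 9.21, 9.44 and 9.55 with siHMGA1. GINS2 was at 11.06, 10.96, 11.02 and 11.07 with siCTRL and 9.67, 9.51, 9.68 and 9.85 with siHMGA1. These subunits of the GINS complex had the largest changes among these 7 genes, with log2 fold changes of -1.34 and -1.35 and limma adjusted p = 2.54e-07 and 1.89e-07. GINS3 was at 9.20, 8.93, 9.05 and 9.14 with siCTRL and 8.09, 7.94, 8.05 and 8.23 with siHMGA1, and it fell by 1.004 (SE 0.0784, limma adjusted p = 2.20e-06). GINS4 was at 8.98, 9.30, 9.13 and 9.31 with siCTRL and 9.02, 8.89, 9.03 and 8.90 with siHMGA1. The groups overlapped through siCTRL array 1, the lowest control, and the log2 fold change of -0.22 was not called (SE 0.0806, limma adjusted p = 0.0584). Without siCTRL array 1 it was -0.29 with a limma adjusted p of 0.00995, and the GINS4 probe set next in brightness fell by 0.42 (limma adjusted p = 7.15e-04 among all probe sets).

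CDC45, the third part of the active helicase beside MCM2 to MCM7 and GINS, had signals of 9.29, 9.24, 9.31 and 9.26 with siCTRL and 8.000, 7.99, 8.20 and 8.35 with siHMGA1. It fell by 1.13 (SE 0.0816, limma adjusted p = 1.20e-06). MCM10, which helps to start the helicase, was at 9.86, 9.91, 9.85 and 9.86 with siCTRL and 8.50, 8.52, 8.55 and 8.89 with siHMGA1, and it fell by 1.25 (SE 0.085, limma adjusted p = 7.71e-07). MCM8, a helicase of recombination repair that is not part of the MCM2 to MCM7 ring, was at 9.15, 8.98, 9.25 and 9.13 with siCTRL and 7.94, 7.85, 8.06 and 8.20 with siHMGA1, and it fell by 1.12 (SE 0.0856, limma adjusted p = 1.87e-06). The SD of the controls was 0.030 for CDC45, 0.025 for MCM10 and 0.11 for MCM8. In each of these genes the highest siHMGA1 value was that of array 4. The other MCM8 probe set, with a mean of 6.18, moved by -0.026 on the log2 scale.

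The genes of all 6 subunits of the MCM2 to MCM7 ring fell, with log2 fold changes of -0.59 to -1.09. MCM5, with the largest change, was at 10.30, 10.53, 10.44 and 10.40 with siCTRL and 9.22, 9.39, 9.24 and 9.47 with siHMGA1, and it fell by 1.09 (SE 0.0758, limma adjusted p = 9.34e-07). MCM3 was at 11.63, 11.97, 11.79 and 11.94 with siCTRL and 10.69, 10.76, 10.82 and 10.95 with siHMGA1, and it fell by 1.03 (SE 0.0859, limma adjusted p = 3.54e-06). MCM6, with the smallest, was at 11.80, 11.69, 11.77 and 11.73 with siCTRL and 11.06, 11.09, 11.23 and 11.25 with siHMGA1, and it fell by 0.59 (SE 0.0637, limma adjusted p = 2.50e-05). The groups were apart for each of the 6 genes. MCM2, MCM4 and MCM7 had log2 fold changes of -0.69, -0.77 and -0.73, and the largest limma adjusted p of the ring was 8.99e-05, for MCM2.

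The genes of the licensing factors for this ring all fell. CDC6, the loading ATPase, was at 10.47, 10.50, 10.54 and 10.43 with siCTRL and 9.09, 9.03, 9.12 and 9.35 with siHMGA1, and it fell by 1.34 (SE 0.0739, limma adjusted p = 1.95e-07), to 39.5% of the control signal. CDT1, which brings the ring to the origin, fell by 0.47 (SE 0.0814, limma adjusted p = 9.14e-04). GMNN, the inhibitor of CDT1, was at 12.74, 12.76, 12.79 and 12.85 with siCTRL and 12.35, 12.27, 12.37 and 12.47 with siHMGA1. Its values were apart between groups, and it fell by 0.42 (SE 0.0608, limma adjusted p = 2.31e-04). Both genes of the kinase that then fires the origin also fell. Its regulatory subunit DBF4 was at 10.96, 10.90, 11.05 and 10.97 with siCTRL and 10.28, 10.21, 10.48 and 10.44 with siHMGA1, and it fell by 0.62 (SE 0.0722, limma adjusted p = 4.93e-05). The catalytic subunit CDC7 was at 9.99, 9.95, 9.89 and 9.89 with siCTRL and 9.25, 9.33, 9.42 and 9.45 with siHMGA1, and it fell by 0.57 (SE 0.0628, limma adjusted p = 3.31e-05).

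ORC was mixed, with 3 of its 6 genes lower, 2 higher and 1 not called. ORC1, the subunit that cells make and destroy in each cycle, was at 7.48, 7.58, 7.50 and 7.63 with siCTRL and 6.62, 6.64, 6.59 and 6.70 with siHMGA1. It fell by 0.91 (SE 0.0595, limma adjusted p = 6.02e-07), and ORC6 fell by 0.55 (SE 0.0894, limma adjusted p = 5.66e-04). ORC4 went the other way and was at 10.92, 10.76, 10.85 and 10.76 with siCTRL and 11.19, 11.18, 11.22 and 11.16 with siHMGA1. Every siHMGA1 value was above the controls, with a log2 fold change of 0.36 (SE 0.0586, limma adjusted p = 5.40e-04). ORC5 was at 9.88, 9.81, 9.86 and 9.83 with siCTRL and 10.005, 9.96, 10.002 and 10.03 with siHMGA1, a log2 fold change of 0.16 (SE 0.0523, limma adjusted p = 0.0422). ORC2 was at 8.57, 8.46, 8.60 and 8.39 with siCTRL and 8.60, 8.66, 8.70 and 8.65 with siHMGA1, where the groups overlapped, and its log2 fold change of 0.14 was not called (SE 0.0631, limma adjusted p = 0.113). ORC3 had a log2 fold change of -0.17 (SE 0.0525, limma adjusted p = 0.0273). The small changes of this complex were fragile. The call of ORC5 was lost without any of the arrays except siCTRL 1 (limma adjusted p = 0.0584 to 0.108), and that of ORC3 without siCTRL 2, siCTRL 3 or siHMGA1 1, 2 or 3 (limma adjusted p = 0.0523 to 0.0776). ORC4 had a log2 fold change of 0.19 (limma adjusted p = 0.0908) without _s_at and _x_at probe sets, and ORC2 was at -0.055 with the mean of its probe sets. ORC2 was called higher, by 0.22, without siCTRL arrays 1 and 3 and with housekeeping centring (limma adjusted p = 0.0231 and 0.0192).

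**Figure D3:**
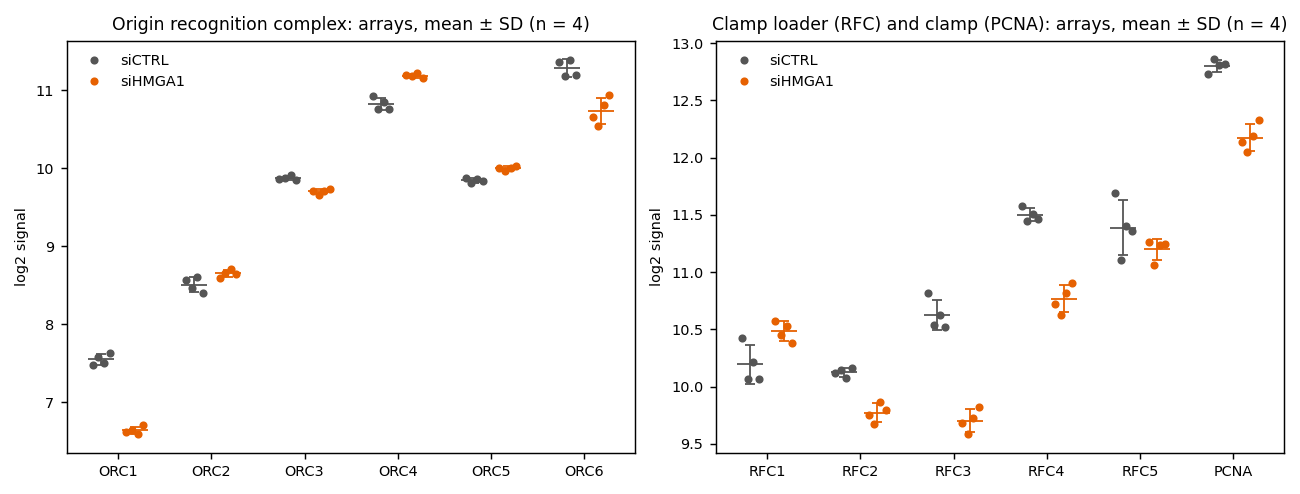
Log2 signal of each array (points) with mean and SD (n = 4) in siCTRL (grey) and siHMGA1 (orange) for the 6 ORC genes on the left and the 5 RFC genes with PCNA on the right. ORC1, ORC6, RFC3 and RFC4 are lower with the groups apart, ORC4 is higher with the groups apart, and RFC1 and RFC5 overlap between groups.

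Of the 10 genes of polymerases and primase 9 were lower. PRIM1, the catalytic primase subunit, was at 9.90, 9.88, 9.82 and 9.88 with siCTRL and 8.71, 8.46, 8.61 and 8.78 with siHMGA1. All siHMGA1 values were at least 1 unit below the lowest control, and PRIM1 fell by 1.23 (SE 0.0724, limma adjusted p = 2.92e-07). The other parts of the polymerase alpha and primase complex had log2 fold changes of -0.85 (POLA1), -0.70 (POLA2) and -0.61 (PRIM2). Of polymerase epsilon, which copies the leading strand, the log2 fold changes were -0.65 (POLE), -0.88 (POLE2) and -0.47 (POLE3), with limma adjusted p of 7.73e-04 or less. Of polymerase delta, which copies the lagging strand, POLD3 fell by 0.85 and the catalytic subunit POLD1 fell by 0.48 (SE 0.0942, limma adjusted p = 0.00198). POLD2 was at 9.48, 9.81, 9.71 and 9.78 with siCTRL and 9.38, 9.74, 9.57 and 9.64 with siHMGA1. These groups overlapped, and its log2 fold change of -0.11 was not called (SE 0.0931, limma adjusted p = 0.428).

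The sliding clamp and its loader were mixed. PCNA, which holds the polymerases on DNA, fell by 0.63 (SE 0.0685, limma adjusted p = 2.90e-05). RFC3 was at 10.81, 10.54, 10.63 and 10.52 with siCTRL and 9.68, 9.59, 9.73 and 9.82 with siHMGA1, and it fell by 0.92 (SE 0.0786, limma adjusted p = 4.19e-06). RFC4 and RFC2 were lower, with log2 fold changes of -0.73 and -0.35. RFC1, the large subunit of the loader, was at 10.43, 10.07, 10.22 and 10.07 with siCTRL and 10.57, 10.45, 10.53 and 10.38 with siHMGA1. The lowest siHMGA1 value, in array 4, was below that of siCTRL array 1, and the log2 fold change was 0.29 (SE 0.0857, limma adjusted p = 0.0233). That call was lost without siCTRL 2, siCTRL 4, siHMGA1 1 or siHMGA1 3 (limma adjusted p = 0.0641 to 0.0685) and with the methods' t-test (Benjamini-Hochberg adjusted p = 0.0736). Without _s_at and _x_at probe sets RFC1 was at 0.058 (limma adjusted p = 0.693). The RFC1 probe set next in brightness, an _x_at one, had a log2 fold change of 0.50 (limma adjusted p = 1.34e-04 among all probe sets).

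RFC5 depended on its probe set. The brightest one was at 11.69, 11.11, 11.40 and 11.35 with siCTRL and 11.26, 11.06, 11.23 and 11.25 with siHMGA1, with overlapping groups and a log2 fold change of -0.19 that was not called (SE 0.106, limma adjusted p = 0.224). The others, with mean signals of 10.90 and 8.77, were lower, with log2 fold changes of -0.79 and -0.74 (limma adjusted p = 5.32e-05 and 4.77e-05 among all probe sets). Without siCTRL array 2 the brightest one fell by 0.28 (limma adjusted p = 0.0395).

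RPA, which coats single-stranded DNA, had small changes, with 2 of its 3 genes lower. RPA3 was at 11.68, 12.07, 11.60 and 11.90 with siCTRL and 11.56, 11.41, 11.56 and 11.56 with siHMGA1, and it fell by 0.29 (SE 0.0965, limma adjusted p = 0.0411). RPA2 was at 11.34, 11.45, 11.32 and 11.32 with siCTRL and 11.21, 11.22, 11.23 and 11.28 with siHMGA1, with a log2 fold change of -0.12 that was not called (SE 0.0562, limma adjusted p = 0.131). RPA1 fell by 0.20 (SE 0.0575, limma adjusted p = 0.0198). In RPA3 the lower controls were arrays 1 and 3, those with the larger 3' to 5' difference of GAPDH, and without these arrays the log2 fold change was -0.46 (limma adjusted p = 0.00203). The call of RPA3 was lost without siCTRL 2, siCTRL 4 or any siHMGA1 array (limma adjusted p = 0.0665 to 0.112), and that of RPA1 without siCTRL 3, siHMGA1 1 or siHMGA1 3 (limma adjusted p = 0.0568 to 0.0596).

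The genes of enzymes that finish Okazaki fragments fell together. LIG1, the ligase that seals them, was at 9.56, 9.72, 9.57 and 9.63 with siCTRL and 8.71, 8.69, 8.68 and 8.76 with siHMGA1, and it fell by 0.91 (SE 0.0586, limma adjusted p = 5.63e-07). FEN1, the flap nuclease, was at 12.90, 12.82, 12.83 and 12.83 with siCTRL and 12.05, 11.92, 12.02 and 12.18 with siHMGA1, and it fell by 0.80 (SE 0.0642, limma adjusted p = 2.72e-06). Chromatin assembly factor CAF-1, which places new histones behind the fork, was lower in the RNA of both large subunits. CHAF1A was at 9.70, 9.83, 10.02 and 9.92 with siCTRL and 8.61, 8.62, 8.93 and 8.91 with siHMGA1, and it fell by 1.10 (SE 0.0955, limma adjusted p = 4.69e-06). CHAF1B was at 7.69, 7.80, 7.89 and 7.99 with siCTRL and 6.78, 6.57, 6.60 and 6.83 with siHMGA1, and it fell by 1.15 (SE 0.0838, limma adjusted p = 1.34e-06). No siHMGA1 array overlapped the controls in any of these 4 genes. CHAF1A lost its call without _s_at and _x_at probe sets (log2 fold change -0.029, limma adjusted p = 0.798), where only a probe set with a mean signal of 4.52 was left.

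The RNA signals of partner genes were then compared within each array, to see whether genes whose products work as a pair changed alike. The log2 difference between partners was taken per array for 8 pairs, and its shift between groups was tested by an exact two-sided permutation test (the smaller tail doubled) with adjustment over the 8 pairs. TIMELESS shifted by -1.26 against TIPIN (SD of the difference 0.128 in siCTRL and 0.124 in siHMGA1, n = 4 each), PRIM1 by -0.62 against PRIM2 (SD 0.0978 and 0.196) and POLD1 by -0.37 against POLD2 (SD 0.144 and 0.0988). In these 3 pairs the groups did not overlap, which gives the smallest exact p that 4 arrays against 4 allow, 0.0286, and an adjusted exact p of 0.0762. The other 5 pairs overlapped between groups. The shift was -0.16 for POLA1 against POLA2, 0.051 for CDC7 against DBF4, 0.22 for POLE against POLE2, -0.045 for CDT1 against GMNN and 0.044 for CHAF1A against CHAF1B, with exact unadjusted p-values of 0.0857 to 0.743. Thus 0 of 8 pairs passed after adjustment by the exact permutation test and 3 had an unadjusted p under 0.05. At this smallest p at least 5 of the 8 pairs would have to reach it together for any to pass, so that the count says little about single pairs. When the probe sets of each gene were averaged, 6 pairs reached it and passed, with PRIM1 against PRIM2 and POLD1 against POLD2 at the same shifts as before. That average gave -0.53 for TIMELESS against TIPIN, -0.44 for POLA1 against POLA2, -0.19 for CDT1 against GMNN and 0.37 for CHAF1A against CHAF1B. It takes in dim probe sets, with mean signals down to 4.52 for CHAF1A, 5.40 for TIMELESS and 5.69 for POLA2. PRIM1, PRIM2, POLD1 and POLD2 have 1 probe set each, so their pairs passed only because more pairs reached the smallest p. For CDT1 the average takes in a probe set with a mean signal of 7.84. The passes thus depend on how probe sets are combined or on how many pairs reach this p. They are not clear differences between partners. Without _s_at and _x_at probe sets the shift was 0.21 for TIMELESS against TIPIN, -0.58 for POLA1 against POLA2 and 1.12 for CHAF1A against CHAF1B. There TIMELESS, POLA2 and CHAF1A rest on probe sets with mean signals of 5.40, 6.05 and 4.52.

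**Figure D4:**
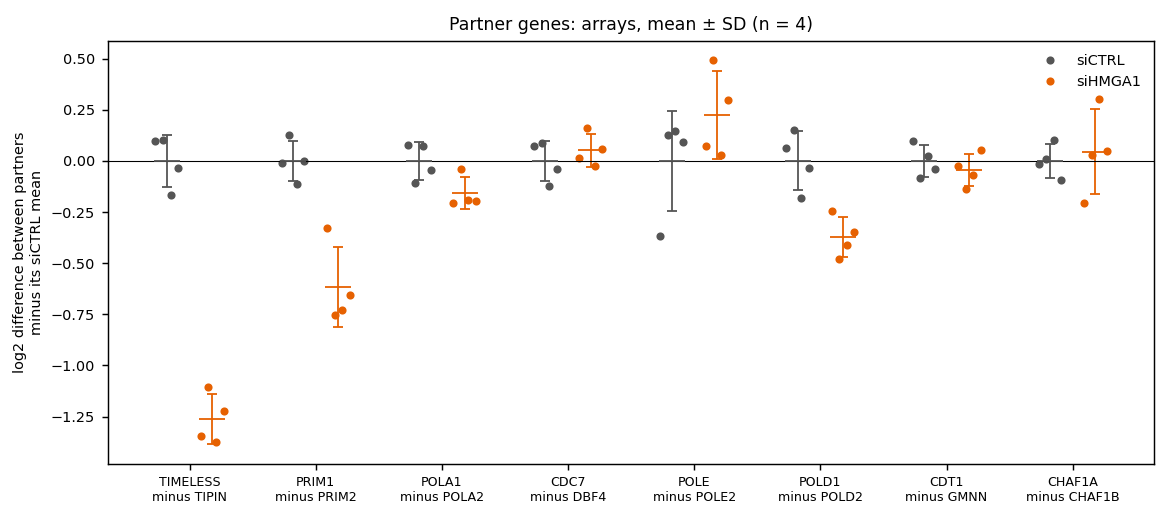
Log2 difference between the genes of a pair minus its siCTRL mean (vertical axis), for each array (points) with mean and SD (n = 4) in siCTRL (grey) and siHMGA1 (orange), for 8 pairs. The shift is -1.26 for TIMELESS against TIPIN and 0.051, -0.045 and 0.044 for CDC7 against DBF4, CDT1 against GMNN and CHAF1A against CHAF1B, with each gene given by its brightest probe set.

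The members had 95 probe sets in all, which differed more in size than in direction. Over all probe sets, 71 of the 95 were lower and 3 higher in limma, against 10.4% lower and 11.7% higher among all 54675. The higher ones were 1 of ORC4 and 2 of RFC1. With adjustment over all probe sets none of ORC5 was called. Nor were the only probe sets of ORC3 and RPA3 (limma adjusted p = 0.0573 and 0.0578). Of the 26 genes with more than 1 probe set, 14 had all of them lower, and 0 had probe sets called in opposite directions. WDHD1 changed evenly, at -1.46, -1.56 and -1.54 in its 3 probe sets. CDC6 was at -1.34 and -1.18, MCM10 at -1.25, -1.06 and -1.11, and FEN1 at -0.80 and -0.76. GINS2 spread from -1.35 to 0.044, with a mean signal of 6.99 in the last of these, and CLSPN from -1.60 to -0.50, with mean signals under 6 in its 3 weaker probe sets. MCM6 was at -1.27 in its dim probe set (mean 5.62) and at -0.59 in its bright one. Of the 12 member probe sets with a mean under 6, 6 were lower, and of the other 83, 65 were.

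**Figure D5:**
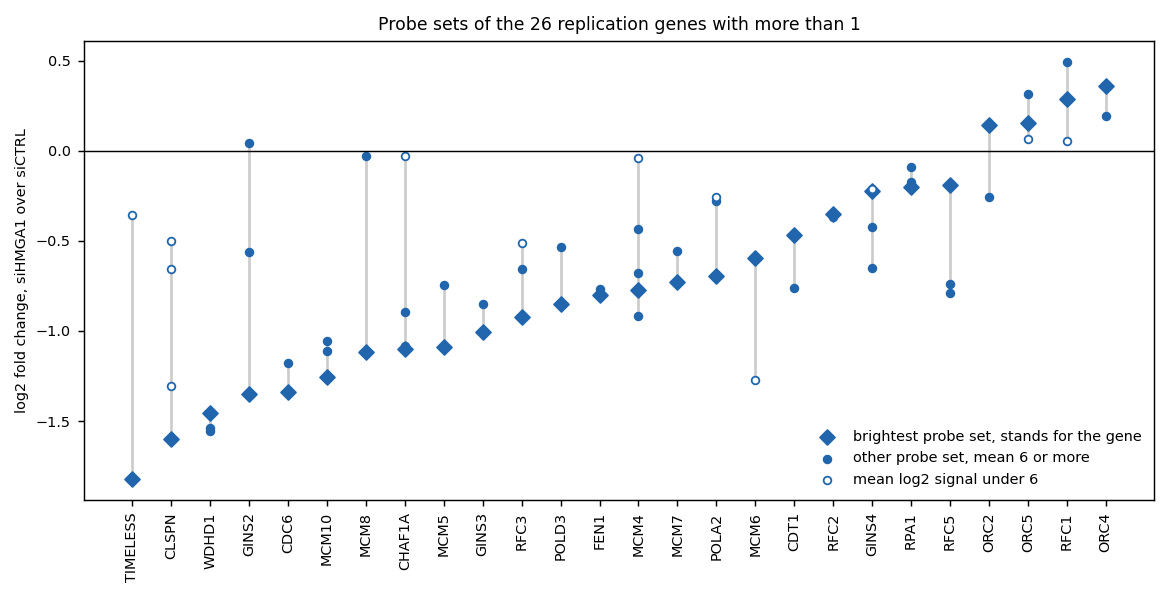
Log2 fold change of every probe set (points) of the 26 members with more than 1, ordered along the horizontal axis by the brightest probe set (diamonds), with open symbols for mean log2 signals under 6. TIMELESS, GINS2, CLSPN, MCM8 and CHAF1A spread by more than 1 unit, and RFC5 is lower in both of its other probe sets.

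Of a further 28 measured genes of replication outside the list, 20 were lower and 3 higher (median log2 fold change -0.66). Over all genes 14.7% were lower and 15.8% higher (median 0.012). The 28 genes too were chosen with earlier results of these data known. SUPT16H, a subunit of the histone chaperone FACT, was at 11.81, 11.81, 11.88 and 11.85 with siCTRL and 9.81, 9.96, 9.96 and 10.09 with siHMGA1. SUPT16H fell by 1.88 (SE 0.066, limma adjusted p = 1.20e-08). SSRP1, its partner in FACT, had overlapping groups and a log2 fold change of -0.19 that was not called (limma adjusted p = 0.0607). DTL, the ligase subunit that marks CDT1 for destruction in S phase, fell by 1.68 (SE 0.11, limma adjusted p = 5.91e-07). DSCC1, of the alternative clamp loader, and the histone chaperone ASF1B were lower, with log2 fold changes of -1.39 and -1.13 and limma adjusted p = 4.00e-07 and 2.62e-04. The call of DSCC1 was lost without _s_at and _x_at probe sets (log2 fold change -0.031, limma adjusted p = 0.858). The small subunits POLD4 and POLE4 had log2 fold changes of 0.32 and 0.23 (limma adjusted p = 0.0431 and 0.0453), and TOP1, named after its value was seen, one of 0.21 (SE 0.0616, limma adjusted p = 0.0213). POLD4 was lower in siCTRL arrays 1 and 3 than in 2 and 4, and without arrays 1 and 3 neither POLD4 nor POLE4 was called (log2 fold changes 0.10 and 0.099, limma adjusted p = 0.252 and 0.293). Both calls were also lost without siCTRL 1, siCTRL 3 or any siHMGA1 array (limma adjusted p = 0.0743 to 0.118 for POLD4 and 0.0538 to 0.127 for POLE4). The call of TOP1 was lost without siCTRL 2, siCTRL 4, siHMGA1 1 or siHMGA1 3 (limma adjusted p = 0.0571 to 0.0634), and its log2 fold change was 0.44 with the average of its probe sets and 0.66 with the most variable one.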

How the data were processed

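RNA of 8 MDA-MB-231 cultures was hybridised to Affymetrix arrays. The authors read the arrays with the Affymetrix Expression Console software and normalised them by RMA, and the deposited values are log2 signals of 54675 probe sets. RMA gives all arrays the same distribution, so that a shift of most transcripts would be removed. Versions of RMA and of this software are not given in the sources used here, scanner data were not analysed here, and the number of arrays limits the precision.

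Control probe sets (62), those with several genes (1801) and those without a gene name (11721) were left out. Of the 41091 others, named by the platform annotation, the one with the highest mean over all arrays stood for each of 19775 genes. Groups were compared with limma 3.58.1 in R 4.3.3, with Benjamini-Hochberg adjustment over all genes. The steps were tested on simulated data. Members and lists were chosen with earlier results of these data known. Array values are given for HMGA1, for members with a change of 1 or more, for those that were higher, and for the largest and smallest change of each functional group. Up to 4 lower and 2 higher other genes are named, and TOP1 and SSRP1 besides, after their values were seen. The other replication genes LRWD1 and MMS22L and the housekeeping gene RPLP0 had no probe set of their own. Promoters are from RefSeq.

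The alternatives were 3 other choices of probe set per gene, housekeeping centring, cyclic loess, a filter on means under 6 and array weights. They also took in a robust fit with a trended prior, a replicate block, leaving out each array and Student's t-test. The methods name this t-test for data in general and limma for the arrays. The thresholds of the methods and all probe sets were used as well. Leaving out siCTRL arrays 1 and 3 together was added after their control probe sets were seen.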

Additional observations from a re-analysis of the deposited data

Results flagged for a closer look

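In 6 of 104 groups of 4 arrays, 1 array lay far from the other 3, with a gap to its nearest neighbour, as a part of the range, above Dixon's critical value for 4 samples, where chance gives about 1 in 20. For MCM10, siHMGA1 array 4 was at 8.89 and the next array at 8.55 (gap 0.881 of the range). For POLA1, siCTRL array 2 was at 8.54 and the next at 8.61 (0.864). For RFC5, siHMGA1 array 2 was at 11.06 and the next at 11.23 (0.860), and for RPA3 the same array was at 11.41 and the next at 11.56 (0.973). For RPA2, siCTRL array 2 was at 11.45 and the next at 11.34 (0.868). For FEN1, siCTRL array 1 was at 12.90 and the next at 12.83 (0.878).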

How the results depend on the processing

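Of 51 members, 40 to 45 were lower under every alternative that kept all of them and the call at an adjusted p under 0.05, with medians of -0.62 to -0.76, and 40 to 44 were lower when arrays were left out in turn. Without _s_at and _x_at probe sets, 40 members remained measured, of which 30 were lower and 0 higher. Under the thresholds of the methods 3 were lower and 0 higher, and over all probe sets 71 were lower. The count of higher members was 1 to 3 when arrays were left out in turn, and was 1 without siCTRL 2, siCTRL 4, siHMGA1 1 or siHMGA1 3. Of the other replication genes, 20 to 21 were lower and 0 to 2 higher when arrays were left out in turn. The count was 0 higher without siHMGA1 1 or siHMGA1 3. It was 1 higher without _s_at and _x_at probe sets, with cyclic loess, with array weights and with Student's t-test. Partner pairs passed in 6 cases with the mean of probe sets and in 4 of 5 without _s_at and _x_at probe sets. Without single arrays the smallest two-sided exact p, with the smaller tail doubled, is 0.0571, so that no pair could pass (adjusted exact p of 0.114 or more), and the shift of CHAF1A against CHAF1B was -0.043 to 0.13.

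Direction turned for GINS2 without _s_at and _x_at probe sets (0.044), for ORC2 with the mean of probe sets (-0.055) and with the most variable one (-0.25), for TIMELESS against TIPIN without _s_at and _x_at probe sets (0.21), and for CHAF1A against CHAF1B without siHMGA1 3 (-0.043); the cause was not tested. The sample titles number the experiments alike in both groups. The same-numbered arrays deviated together with r of 0.07, 0.27, 0.11 and -0.12, and only the arrays numbered 2 matched each other best. So few arrays cannot settle whether equal numbers mark paired cultures, and the main fit took them as unpaired. With the replicate block, 41 members were lower and 2 higher, and ORC3, ORC5 and RPA3 were no longer called. The log2 fold change of HMGA1 was -2.50 to -2.34 when arrays were left out in turn and -1.66 with the mean of probe sets.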
